A study of Mus musculus with 4 samples.

Results

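The open chromatin of control B16F10 cells comprised 73157 genomic regions, chosen by the authors' own peak calls: overlapping peaks of both sgScramble libraries were merged, and a region was kept where each library had a peak. They were 77.7% of the 94189 merged sgScramble regions and stood beside 103629 merged regions over all 4 libraries of the series. B16F10 is a mouse melanoma line grown in culture, and the control cells carried a scrambled guide RNA (sgScramble, replicates 1 and 2). The series also holds 2 libraries of B16F10 cells with a guide against Arid1a (sgArid1a), which entered only the count over the whole series. The labels do not say whether the cells were a clone or a pool, nor whether the replicates were separate cultures, and their differences may therefore reflect technique alone. Accessibility was measured by Omni-ATAC with 50000 cells per Tn5 reaction.

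In ATAC-seq the Tn5 transposase inserts sequencing adapters where DNA is not packed into nucleosomes, so peaks mark active promoters, enhancers and other accessible sites. Melanocytes and melanomas of the pigmented kind are governed by the transcription factor Mitf together with Sox10 and Pax3, which act on genes for melanin synthesis. Mitf binds the M-box, whose core is CATGTG, in promoters of the melanogenic enzymes Tyr, Tyrp1 and Dct. Other melanoma states are marked by AP-1 and TEAD factors, which bind mostly at enhancers.

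The deposited lists held 82319 peaks covering 73.9 Mb in replicate 1 and 85613 peaks covering 75.8 Mb in replicate 2. Median peak widths were 754 and 743 bp. The median fold of a peak, the authors' ratio of signal over background, was 4.001 in replicate 1 and 3.93 in replicate 2. The lists hold no read counts, so depth is unknown, and the fold is used here only as a percentile within its own list, with 100 the highest.

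The promoters of 3 pigment genes, 3 starts of Mitf and 2 genes of other tissues show the letters that lie under, or outside, the control regions. Each sequence runs 5′ to 3′ on the gene's strand, from 250 bases before to 50 bases after the RefSeq start (GRCm38.p6), and capitals mark matches of 7 motifs searched on both strands. The motifs were the M-box core CATGTG, the E-box CACGTG, the AP-1 site TGACTCA, the cAMP response element TGACGTCA, the GC box GGGCGG, the CCAAT box CCAAT and the TATA box TATAAA. Tyr encodes tyrosinase, the rate-limiting enzyme of melanin synthesis, and its promoter (chr7:87493463-87493762, minus strand) lay within a region of both lists. It held CATGTG 21 bases before the start and no CpG at all.
Tyr: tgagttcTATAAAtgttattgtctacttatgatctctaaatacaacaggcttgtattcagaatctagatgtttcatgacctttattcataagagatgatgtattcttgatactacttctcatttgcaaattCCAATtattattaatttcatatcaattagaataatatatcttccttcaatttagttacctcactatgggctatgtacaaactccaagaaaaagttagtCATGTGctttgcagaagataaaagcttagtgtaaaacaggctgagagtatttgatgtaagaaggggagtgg
Tyrp1, which encodes a melanosomal enzyme related to tyrosinase, had its promoter (chr4:80833963-80834262, plus strand) within a region as well, with CATGTG 46 bases before the start. Its CCAAT box was on the opposite strand.
Tyrp1: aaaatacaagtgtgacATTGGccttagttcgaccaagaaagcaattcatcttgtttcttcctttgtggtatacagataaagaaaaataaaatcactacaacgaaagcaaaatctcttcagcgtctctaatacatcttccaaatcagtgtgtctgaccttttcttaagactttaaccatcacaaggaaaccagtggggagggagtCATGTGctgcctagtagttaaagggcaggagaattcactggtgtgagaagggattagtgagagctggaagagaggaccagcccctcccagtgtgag
Dct, which encodes dopachrome tautomerase, had CATGTG 150 bases before the start and its reverse complement 232 bases before it (chr14:118052197-118052496, minus strand). This promoter too was covered by a region of both lists.
Dct: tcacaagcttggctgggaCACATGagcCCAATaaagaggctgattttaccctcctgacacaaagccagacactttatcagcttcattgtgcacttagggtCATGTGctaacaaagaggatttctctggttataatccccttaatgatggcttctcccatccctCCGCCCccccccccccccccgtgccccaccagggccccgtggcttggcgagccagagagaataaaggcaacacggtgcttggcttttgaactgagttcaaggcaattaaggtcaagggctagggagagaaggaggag
RefSeq gives Mitf 3 starts in the table, all on the plus strand of chromosome 6. The upstream start (chr6:97806808-97807107) was open, with 2 overlapping GC boxes, 22 CpGs and a GC content of 62.7%.
Mitf upstream start: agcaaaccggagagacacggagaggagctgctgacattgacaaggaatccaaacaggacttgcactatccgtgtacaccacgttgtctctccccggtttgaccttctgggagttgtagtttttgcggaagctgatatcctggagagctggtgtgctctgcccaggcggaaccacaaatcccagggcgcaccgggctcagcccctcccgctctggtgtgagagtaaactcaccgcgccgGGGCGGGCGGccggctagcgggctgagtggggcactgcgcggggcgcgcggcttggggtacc
The middle start (chr6:97929567-97929866) was not overlapped by a region of both lists, and the nearest one lay 7413 bp away. It held 5 CpGs and a CCAAT box on the opposite strand.
Mitf middle start: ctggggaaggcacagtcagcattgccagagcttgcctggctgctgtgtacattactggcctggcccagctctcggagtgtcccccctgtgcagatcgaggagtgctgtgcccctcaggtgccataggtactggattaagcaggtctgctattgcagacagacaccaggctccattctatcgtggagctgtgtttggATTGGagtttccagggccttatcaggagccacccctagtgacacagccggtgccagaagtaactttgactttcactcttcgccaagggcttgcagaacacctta
The downstream start (chr6:97991533-97991832), which gives the melanocyte form of Mitf, was open and carried a cAMP response element 153 bases before the start. A TATA box match on the opposite strand lay 175 bases before it.
Mitf downstream start: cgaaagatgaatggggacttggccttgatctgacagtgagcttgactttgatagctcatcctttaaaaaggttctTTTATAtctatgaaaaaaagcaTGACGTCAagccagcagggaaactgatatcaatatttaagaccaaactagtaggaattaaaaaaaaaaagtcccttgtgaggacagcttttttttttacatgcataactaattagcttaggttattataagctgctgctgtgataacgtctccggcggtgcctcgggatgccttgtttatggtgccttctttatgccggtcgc
Krt14, a keratin of basal epidermal cells, and Alb, serum albumin of liver cells, served as starts without a region. The Krt14 promoter (chr11:100205981-100206280, minus strand) held none of the 7 motifs.
Krt14: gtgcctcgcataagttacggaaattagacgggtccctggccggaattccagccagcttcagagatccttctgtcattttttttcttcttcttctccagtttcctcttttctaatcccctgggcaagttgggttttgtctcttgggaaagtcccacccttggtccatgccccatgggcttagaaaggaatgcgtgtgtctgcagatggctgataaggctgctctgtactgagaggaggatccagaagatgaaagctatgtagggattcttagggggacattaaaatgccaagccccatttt
The Alb promoter (chr5:90460620-90460919, plus strand) held 2 CCAAT boxes, 15 and 56 bases before the start. The nearest region of both lists lay 66148 bp from it.
Alb: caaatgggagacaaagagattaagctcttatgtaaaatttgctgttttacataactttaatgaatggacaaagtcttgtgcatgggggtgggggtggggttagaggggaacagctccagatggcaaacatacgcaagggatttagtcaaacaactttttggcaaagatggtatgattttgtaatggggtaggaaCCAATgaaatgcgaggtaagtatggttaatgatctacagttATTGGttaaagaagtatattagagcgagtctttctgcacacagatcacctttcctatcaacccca
A match is a description of the letters and not evidence of a bound site.

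Most peaks of either library were found in the other. In replicate 1, 89.1% of peaks lay in regions of both lists, and in replicate 2, 85.9% did (87.5% ± 2.32, SD, n = 2). The regions of both lists covered 78.5 Mb, and 72572 of them (99.2%) were made of 1 peak from each library. A further 8934 merged regions had a peak in replicate 1 only and 12098 in replicate 2 only. Across the 73157 regions the fold percentiles of both libraries had a Spearman correlation of 0.900, with a median absolute difference of 6.62 percentile points. Peak widths in regions with 1 peak from each list had a Spearman correlation of 0.825 and a median absolute difference of 99 bp. These correlations describe regions of 2 libraries that share cell line and protocol, and regions are not independent replicates.

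Being wide or having a high fold went with being found in both libraries. Regions of both lists had a median width of 939 bp (interquartile range 649 to 1350 bp), against 359 bp (285 to 512 bp) for regions of 1 list. A region of both lists spans the union of its peaks, so merging alone can make it wider than either peak. Their median fold percentile was 55.1 in replicate 1 and 56.7 in replicate 2, whereas regions of 1 list stood at 17.5 in replicate 1 and 18.1 in replicate 2. Of peaks over 2 kb, 99.8% in replicate 1 and 99.5% in replicate 2 were shared, against 54.2% and 45.5% of peaks up to 300 bp. In the highest decile of fold, 99.9% of replicate 1 peaks and 99.8% of replicate 2 peaks were shared. The lowest sharing, 68.7% and 60.9%, was found in the second-lowest decile and not in the lowest one, where it was 70.1% and 62.1%. The peak calls that chose the regions also gave these widths and folds, so the values are descriptions without a test.

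**Figure D1:**
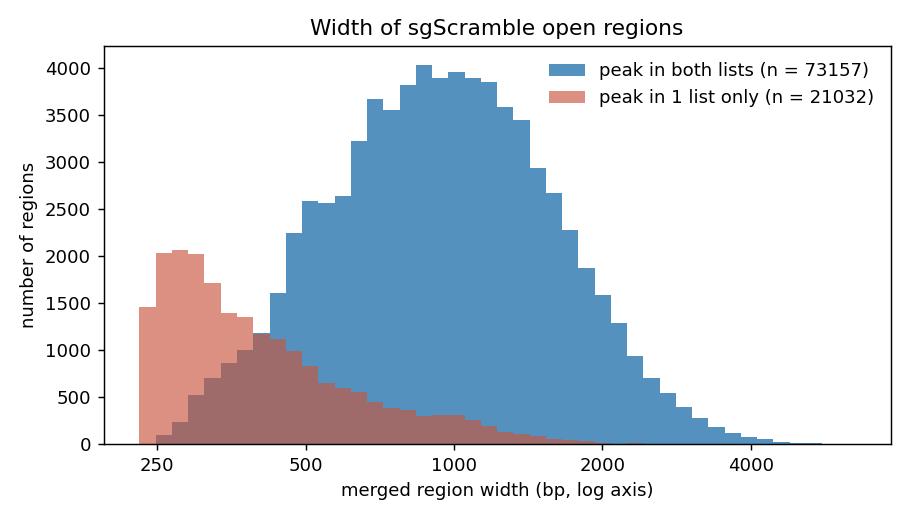
Number of merged sgScramble regions (vertical axis) by width in bp (horizontal log axis), for the 73157 regions with a peak in both lists (blue) and the 21032 with a peak in 1 list only (red). Regions of both lists were centred on 939 bp and reached 6411 bp, whereas regions of 1 list were centred on 359 bp.

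The widest regions did not have the highest fold. Among the regions of both lists, the median fold percentile (mean of both libraries) was 34.9 in the narrowest decile, 243 to 474 bp wide. It was 72.4 in the decile from 1081 to 1250 bp and 44.3 in the widest decile, from 1839 to 6411 bp. The percentile of the authors' −log10 q followed width to the end of the scale, with medians of 31.8, 71.2 and 74.99 in those same deciles. Both libraries showed the fold pattern, with medians of 43.2 in replicate 1 and 45.2 in replicate 2 in the widest decile. A ranking by fold and a ranking by q therefore give different pictures of wide regions, and both are given below where they part.

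**Figure D2:**
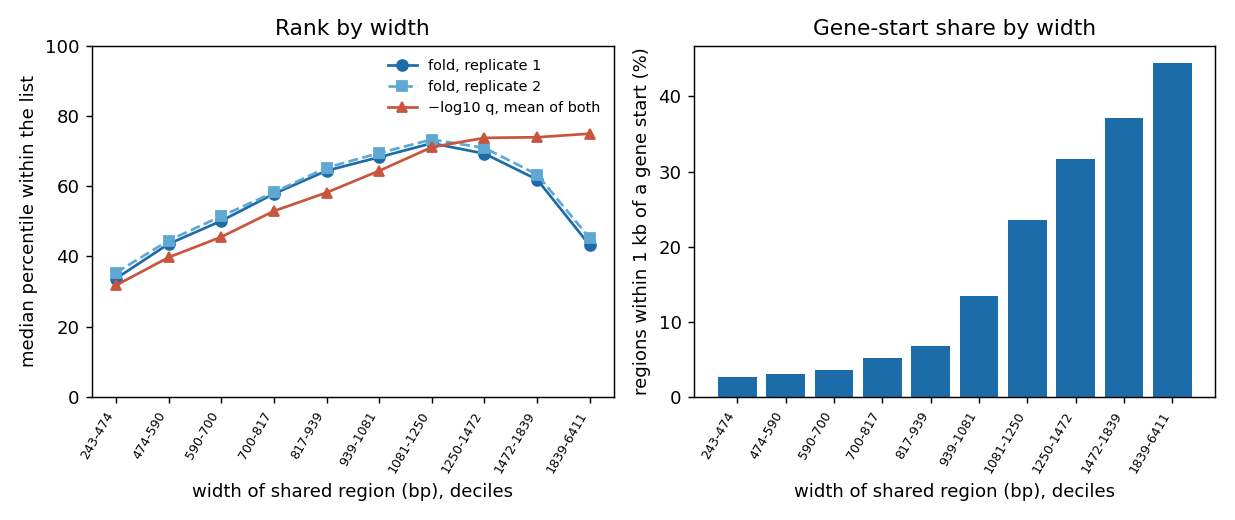
Left, the median within-list percentile (vertical axis) of the regions of both lists by deciles of width in bp (horizontal axis), for the fold in replicate 1 (circles), the fold in replicate 2 (squares) and the −log10 q as the mean of both (triangles). Right, the percent of regions within 1 kb of a gene start in the same deciles, 2.60% in the narrowest and 44.5% in the widest.

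By position, 12560 regions of both lists (17.2%) lay within 1 kb of the start of a protein-coding gene. A further 33255 (45.5%) lay inside genes away from the start, and 27342 (37.4%) lay between genes. Among regions of 1 list the shares were 2.70% at starts, 55.4% inside genes and 41.9% between them. For 9744 of the regions at starts the promoter table gave the start, and for 2816 either end of the gene was used because that table has no entry. Regions at starts were the widest, with a median of 1436 bp, against 860 bp inside genes and 843 bp between genes. Their median fold percentile was 73.4 in replicate 1 and 74.8 in replicate 2. Inside genes the percentiles were 49.1 and 50.8, and between genes 54.9 and 56.2.

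Distance from the start did not order the fold in a simple way. Regions 1 to 10 kb from a start had the lowest median fold percentile, 44.2, below the 52.2 at 10 to 50 kb, the 55.5 at 50 to 100 kb and the 58.3 beyond 100 kb. The band from 10 to 50 kb held the most regions, 36.7% of them, and 14.8% lay beyond 100 kb. In the highest decile of fold 39.9% of regions were at starts, against 11.5% in the lowest decile, while the share inside genes was 26.6% in the highest and 55.4% in the lowest. Neighbouring regions stood a median of 11.8 kb apart, and 18.9% of neighbours were within 5 kb of each other.

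Regions sat slightly inside genes. Of 21262 protein-coding starts in the promoter table, 11515 (54.2%) fell inside a region of both lists. The centre of the region was a median of 59 bp downstream of the start, and it was downstream in 58.4% of cases. Starts of long non-coding RNAs were overlapped less often when the same 300-base window was used: 2406 of 11588 (20.8%), against 11738 of 21262 protein-coding starts (55.2%).

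The widest region, 6411 bp, spanned Tgif1 (chr17:70847241-70853651), which encodes a homeodomain repressor of TGF-beta signalling. Its peaks were 4720 bp wide in replicate 1 and 6411 bp in replicate 2. Of the 15 widest regions, 8 lay at a gene start. These included the starts of Plod1, a collagen lysyl hydroxylase (5575 bp), of the actin-binding scaffold Ppp1r9b (5226 bp) and of Ehbp1l1 (5288 bp). Ptch1, the Hedgehog receptor (5138 bp), and the kinase gene Akt1 (5116 bp) were also among them. A region of 5422 bp held the histone genes H4c4 and H2bc6, and the start of Gm52481 on chromosome Y had 5514 bp. Junb, an AP-1 subunit (5081 bp), and Sox10 (5004 bp) followed directly after the 15 and were named after their values were seen.

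The other 7 of the 15 widest regions lay away from protein-coding starts. One of 5375 bp covered part of Neat1, the long non-coding RNA that builds paraspeckles, near Frmd8. One of 5774 bp, near Armh1, held the small nuclear RNA gene Gm23143, and one of 5679 bp lay at the long non-coding gene Gm48957 near Basp1. A region of 5599 bp (chr17:39843121-39848719) held the ribosomal RNA pseudogene Rn18s-rs5 and AY036118. A region of 5232 bp near Sfi1 and 2 others (chr16:3231769-3237459, 5691 bp, and chr4:3064051-3069578, 5528 bp) held no annotated gene. Sequence repeats and mappability were not tested, since a genome sequence was not used here. Over the 15, the median fold percentile was 2.95 and the median −log10 q percentile 65.3. The region with Rn18s-rs5 had a fold percentile of 0.963 in replicate 1 and 1.27 in replicate 2, while its −log10 q of 173 and 179 was above nearly all other peaks. Among the 1000 widest regions 57.5% were at starts, with median percentiles of 22.8 by fold and 75.3 by −log10 q.

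The regions with the highest fold were narrow and mostly away from starts. The first lay inside Gphn, which encodes the synaptic scaffold gephyrin (chr12:78350869-78351174). It was 306 bp wide with a fold of 21.7 in replicate 1 and 21.0 in replicate 2. The 15 highest had a median width of 434 bp, 11 of them were under 500 bp, and 1 lay at a start, that of Gm39701. Others lay inside Camk1d (334 bp, fold 18.5 and 18.9), Zc3h7a (406 bp, 16.0 and 16.2), the Mediator kinase gene Cdk8 (365 bp, 15.9 and 15.8) and Lars2, the mitochondrial leucyl-tRNA synthetase (388 bp, 15.4 and 15.7). Regions inside Filip1l, Jarid2, Apool and Kctd16 and nearest to Neto1, Arhgef26, Axin2, Pex2 and Samd9l made up the rest. Sequence repeats and mappability were not tested for these regions either, and no filter for them was applied here. A high fold here is therefore not by itself a measure of accessibility. Among the 1000 regions with the highest fold the median width was 970.5 bp, 47.4% were at starts and 40 were under 500 bp, so narrow regions away from starts led the list without making up most of its upper end.

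Of all 21883 protein-coding genes, 12985 (59.3%) had a region of both lists within 1 kb of the start. Genes with such a region are called open below and genes without one closed, which describes the peak calls only. Among the 17491 genes whose start the promoter table gives, the share was 59.1% (10338 genes). Merged regions with a peak of replicate 1 lay there in 13150 genes, and those with a peak of replicate 2 in 13200. The agreement asked of both libraries thus took away few genes. The regions within 2 kb of the start covered a median of 1526 bp per gene with a region, against 1088 bp over all genes. This covered length is summed over all tabled starts of a gene, or over both ends where none is tabled, so lengths of genes with different numbers of starts or ends are not on 1 footing.

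Pigment and melanosome genes were nearly all open, whereas melanocyte factors were open about as often as genes at large. In the pigment and melanosome list, 20 of 21 genes had a region at the start, against 59.3% of all genes. The exception was Ednrb, the endothelin receptor of melanoblasts, which had 2 regions elsewhere. The longest covered lengths were those of Slc45a2, a melanosomal transporter (3617 bp over both gene ends), Hps4, which acts in melanosome biogenesis (3599 bp at 1 start), and Rab27a, which tethers melanosomes to actin (2854 bp over 2 starts). In the melanocyte factor list, 8 of 12 genes were open. Sox10 had 5463 bp and Pax3 4450 bp covered over both gene ends, since neither has a tabled start. Zeb2 had 4622 bp over 4 starts and Mitf 2908 bp over 3. Foxd3, Sox5, Tfap2b and Tfec had no region at the start, although Sox5 had 42 regions assigned along its length and Tfec 5. Of the 15 genes set as markers of the labelled cell type, 14 had a region at a start or end (Mitf, Sox10, Pax3, Tyr, Tyrp1, Dct, Pmel, Mlana, Oca2, Slc45a2, Slc24a5, Gpr143, Mc1r and Kit), and Ednrb had none.

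**Figure D3:**
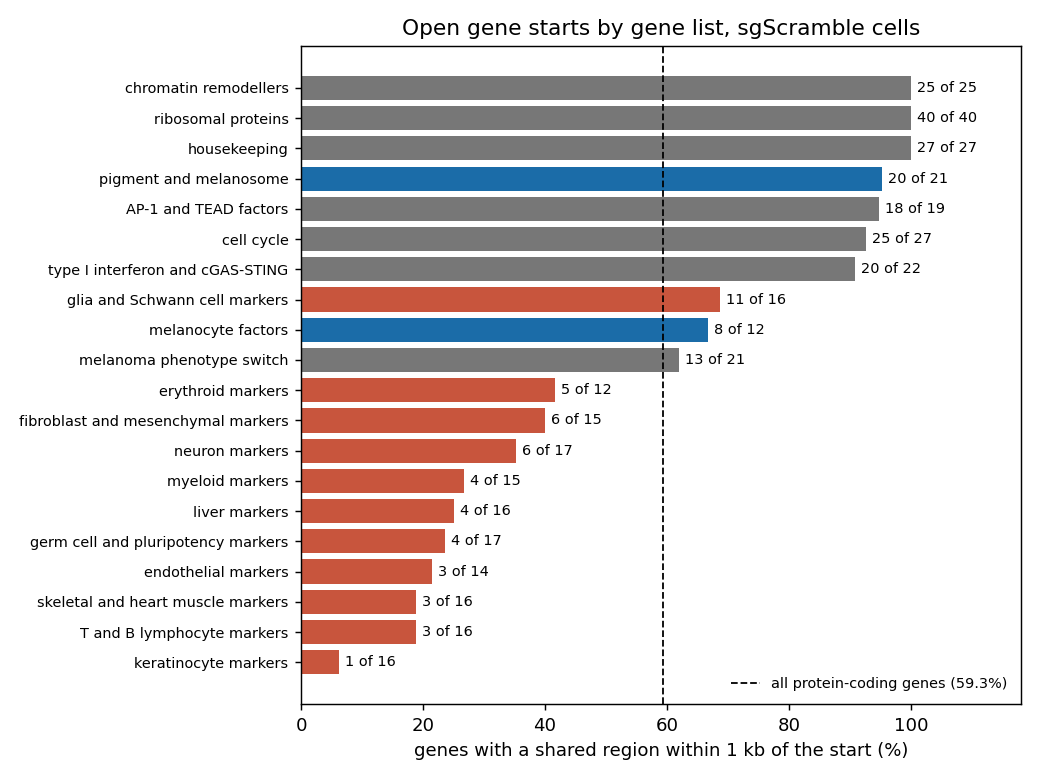
Percent of genes in each list with a region of both sgScramble lists within 1 kb of the start (horizontal axis), with the count of open genes and of genes matched beside each bar. Melanocyte lists are blue, markers of other cell types red, other lists grey, and the dashed line is the share of all protein-coding genes (59.3%). The pigment list stands at 20 of 21 and the keratinocyte markers at 1 of 16.

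The open starts of pigment genes were wide and ranked low by fold. For the 20 open pigment genes, the widest region at the start had a median width of 1806 bp and a median fold percentile of 24.7. Over all 12985 open genes these medians were 1485 bp and 75.1. The Tyr region was 2437 bp wide, with peaks of 2369 bp in replicate 1 and 2193 bp in replicate 2 and a fold percentile of 13.8 and 23.5. The Tyrp1 region was 2756 bp wide, with peaks of 2730 and 2756 bp and a fold percentile of 4.79 and 10.6. The Dct region was 2392 bp wide, with peaks of 2359 and 2350 bp and a fold percentile of 1.13 and 0.950. Both libraries thus placed the 3 melanogenic enzyme promoters low by fold. By −log10 q the mean percentiles were 61.0 for Tyr, 67.0 for Tyrp1 and 71.5 for Dct, and the list's median was 80.2, against 89.8 over all open genes.

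The pattern was not shared by every gene of the list. Of the 20 open pigment genes, 7 had a mean fold percentile over 50, against 9837 of all 12985 open genes (75.8%). Among these were Slc24a4, an ion exchanger (92.0), the receptor gene Kit (90.7), the motor gene Myo5a (81.0), Gpr143 (73.7) and Mlana (57.3). At the low end stood Oca2, a melanosomal transporter (0.633), Slc45a2 (2.76), Gpnmb, a melanosome glycoprotein (2.88), and Mlph, the melanophilin gene (5.85). The melanocyte factors had a median width of 2018.5 bp and a median fold percentile of 14.3, with 0.215 for Zeb2 and 0.449 for Sox10 at the low end and 83.0 for Mitf at the high end. For genes without a tabled start these values take the wider of the gene ends. Pax3 thus entered at 1.76, whereas the region at its other end had a mean fold percentile of 52.3. Which end is its start was not settled here, so the melanocyte factor median rests in part on that choice. Over the genes with a tabled start alone, a view added after the values were seen, the median fold percentile was 26.9 for 5 melanocyte factors and 22.3 for 15 pigment genes, against 76.3 for all 10338 such open genes. The melanocyte factor median thus depended on this choice by more than 1.5 times. Housekeeping genes had medians of 1512 bp and 62.0, and ribosomal protein genes 1417.5 bp and 59.1. Where peaks below the median fold of their list were left out, 33.3% of pigment genes and 3 of 12 melanocyte factors were still open at the start, against 44.0% of all genes. With a −log10 q of at least 5 the shares were 90.5% and 66.7%, against 55.3% of all genes. The open share of pigment genes beyond that of all genes therefore holds for the lists as deposited and under the q threshold, and not under the fold threshold.

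**Figure D4:**
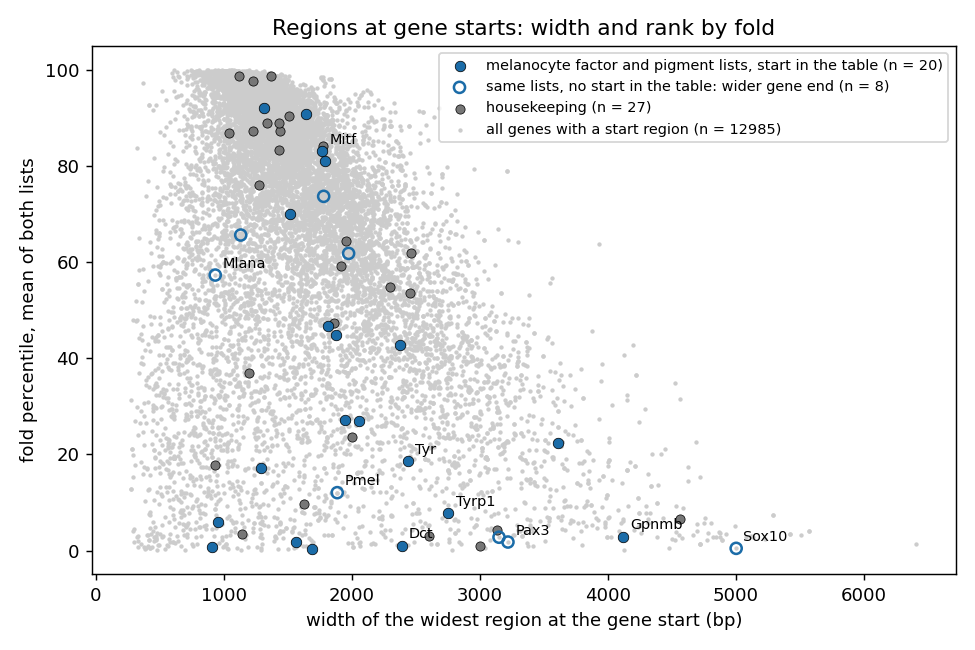
Width in bp (horizontal axis) and mean fold percentile (vertical axis) of the widest region at each gene start, for open genes of the melanocyte factor and pigment lists (blue: filled, 20 genes with a tabled start; open circles, 8 genes without one, shown by the wider region at either end), the 27 housekeeping genes (dark grey) and all 12985 open genes (light grey). Among filled points Dct, Tyrp1 and Gpnmb lie at the foot of the plot and Mitf lies at 83.0, and Sox10 and Pax3 are open circles at the foot.

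Mitf had 24 regions assigned, 17 of them overlapping its 214 kb body (chr6:97807002-98021360). The upstream start had a region of 1771 bp, with peaks of 1771 bp in replicate 1 and 1232 bp in replicate 2 and a fold percentile of 80.3 and 85.8. The start of the melanocyte form had a narrower region of 626 bp, with peaks of 511 and 591 bp and a percentile of 16.3 and 17.8. The widest Mitf region, 3096 bp (chr6:97993273-97996368), began 1490 bp downstream of that start and ranked at 3.11 and 3.03 by fold. The region with the highest −log10 q in the gene (chr6:97981242-97982371) reached 93.7 in replicate 1 and 99.8 in replicate 2, 9412 bp upstream of the same start.

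Each of the 3 enzyme genes had a region upstream with a higher fold than the one at its start. Tyr had 7 regions assigned, and the one with the highest fold, 1279 bp wide and 14240 bp upstream of the start, ranked at 88.7 in replicate 1 and 82.4 in replicate 2. Tyrp1 had 9 regions, and the one with the highest mean percentile lay 35994 bp upstream, at 98.8 in replicate 1 and 96.1 in replicate 2. A second, 13786 bp upstream, was at 96.3 and 97.1 and so was the higher of both in replicate 2. Dct had 11 regions, and its highest, 27821 bp upstream, ranked at 95.8 and 97.2. Inside Dct and at its start no region exceeded a percentile of 1.13 in either library, and 3 regions beyond its 3′ end had percentiles of at most 0.443 in both. Pax3 had 17 regions assigned, Sox10 6, Mlana 3 and Pmel, whose product forms the melanosome fibrils, 1. The annotated Pmel gene overlapped 3 regions, but each region was assigned to 1 gene only. Pax3 has no start in the promoter table, and its ends differed. The region at one end, 1722 bp wide, ranked at 50.1 in replicate 1 and 54.5 in replicate 2 by fold, and the one at the other end ranked at 1.70 and 1.82. That low-ranking region was wide in replicate 1, with 3197 bp of peak, and much narrower in replicate 2, with 881 bp.

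AP-1 and TEAD genes were open at 18 of 19 starts, against 59.3% of all genes. Without peaks below the median fold of their list, 36.8% were open, against 44.0% of all genes. Junb had 4001 bp covered within 2 kb of its start, the whole of that window, Jun had 3428 bp at its start and Maf 3529 bp over both ends. In the list of genes that mark phenotype switching of melanoma, 13 of 21 were open, close to the 59.3% of all genes. Vim, the intermediate filament of mesenchymal cells, had 4001 bp covered, the integrin gene Itga3 3518 bp and the N-cadherin gene Cdh2 3301 bp. Cdh1, the epithelial cadherin, and the receptor gene Egfr had no region at the start. Loxl2, Nt5e, Ror2, Twist1, Wnt5a and Zeb1 had none there either.

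Genes that every cell uses were open throughout in the lists as deposited. All 27 matched housekeeping genes had a region at the start, against 59.3% of all genes, among them the actin gene Actb (3403 bp) and Pgk1 (3266 bp), a glycolytic kinase gene. All 40 ribosomal protein genes were open, led by Rpl32 (3019 bp) and Rpl3 (2960 bp). All 25 chromatin remodeller genes were open, and Arid1a, the subunit targeted in the other libraries of the series, had the longest covered length of this list (4241 bp). Arid1a had 7 regions assigned, 2 of them at its starts. Smarce1 had 3661 bp and Arid2 3638 bp. Of the cell cycle genes 25 of 27 were open, with Myc (3969 bp), E2f3 (3756 bp) and the inhibitor gene Cdkn1a (3205 bp) in front. In the list of type I interferon and cGAS-STING genes 20 of 22 were open, with Ifit2 (2771 bp), Irf3 (2102 bp) and Irf7 (1899 bp) in front. The cytokine gene Ifnb1 and Isg15, a ubiquitin-like modifier, had no region at the start. Over the settings tried, the lowest open shares were 66.7% for housekeeping, 55% for ribosomal protein and 60% for chromatin remodeller genes. They were 48.1% for cell cycle genes and 68.2% for the interferon list. The lowest share over all genes was 44.0%, without peaks below the median fold.

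The 2 cell cycle genes without a region at the start were neighbours. Cdkn2a, which encodes the tumour suppressors p16 and Arf, had no region assigned, and the nearest lay 77760 bp away. Cdkn2b, the gene of the inhibitor p15, was 61347 bp from its nearest region. No peak of either library lay in the 157 kb from position 89215422 to 89372378 of chromosome 4, which holds both genes. Peak lists alone do not tell closed chromatin from absent DNA, and which of these holds here was not tested.

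Markers of other cell types were open less often than genes at large. Over 11 lists, 50 of 170 markers (29.4%) had a region at the start, against 59.3% of all genes. Without peaks below the median fold of their list, the shares were 15.3% of markers and 44.0% of all genes. Among keratinocyte markers 1 of 16 was open, the transcription factor gene Grhl2, with a peak of 375 bp in replicate 1 and 1249 bp in replicate 2, and Krt14 was 20886 bp from its nearest region. T and B lymphocyte markers were open in 3 of 16 cases (Cd2, Cd4 and Cd3g), and Cd3d and Cd3e were closed. Myeloid markers were open in 4 of 15 cases, and the longest covered lengths were 1486 bp at Spi1, 1407 bp at Cebpe and 1281 bp at Cd14. Ptprc, the pan-leukocyte phosphatase CD45, had 3 regions assigned and none at its starts. Endothelial markers were open in 3 of 14 cases (Eng, Erg and Esam), and Cdh5, Emcn and Flt1 were closed. Liver markers were open in 4 of 16 cases, and Afp, Alb and Cps1 were closed.

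Skeletal and heart muscle markers were open in 3 of 16 cases. One of these was Myod1, the myogenic master factor, which had 2 regions assigned. The one at a gene end was made of a peak of 475 bp in replicate 1 and 2078 bp in replicate 2. Germ cell and pluripotency markers were open in 4 of 17 cases, among them Pou5f1 (1840 bp), Klf4 (1443 bp) and Gdf9 (1430 bp). Neuron markers were open in 6 of 17 cases, with Eno2 (2465 bp), Tubb3 (2175 bp) and Map2 (1410 bp) in front. Erythroid markers were open in 5 of 12 cases, led by Nfe2 (3477 bp), and fibroblast and mesenchymal markers in 6 of 15, led by Pdgfrb (2160 bp). Glia and Schwann cell markers were open in 11 of 16 cases, near the 59.3% of all genes. Without peaks below the median fold 37.5% were open, against 44.0% of all genes. Erbb3, a neuregulin receptor, had 4350 bp covered, the POU factor gene Pou3f2 3397 bp and the calcium-binding S100b 2357 bp. The oligodendrocyte genes Mag, Mbp, Mog, Olig1 and Olig2 were closed. An open start is not a measure of expression, and RNA was not analysed here.

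Promoter letters differed with openness. Promoters overlapped by a region of both lists had a median GC content of 61.7%, those without a region 48.7% and all promoters 56.3% (11738, 9524 and 21262 promoters of 300 bases). The ratio of observed over expected CpG had a median of 0.779 with a region, 0.224 without and 0.567 over all, and CpG counts had medians of 22, 4 and 13. Of promoters with a ratio up to 0.2, 8.91% were overlapped by a region, and the share was 25.3%, 56.8%, 81.4%, 90.4% and 92.7% in the steps above it. The Tyr promoter had a CpG ratio of 0, Tyrp1 0.225 and Dct 0.236, and all 3 were open. The Krt14 and Alb promoters, both without a region, had ratios of 0.286 and 0.272. Promoters of 1 gene can overlap, so they are not independent.

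**Figure D5:**
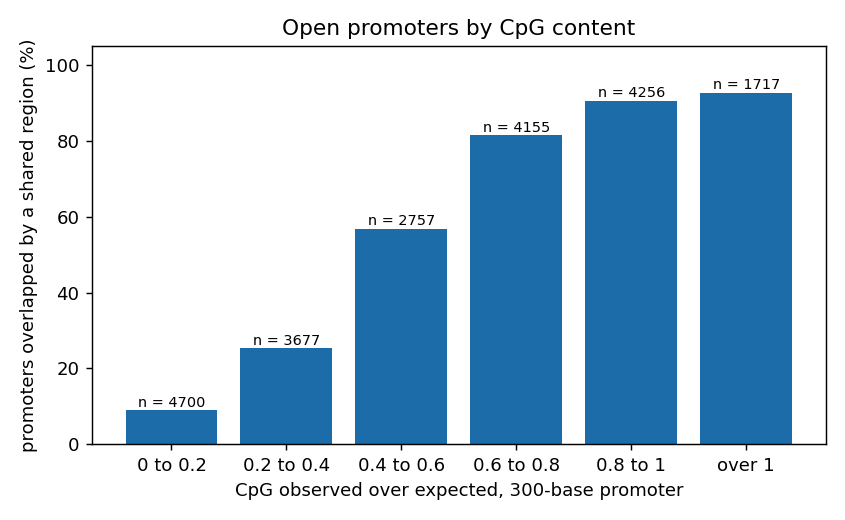
Percent of 300-base promoters overlapped by a region of both sgScramble lists (vertical axis, from 0) by the ratio of observed over expected CpG (horizontal axis), with the number of promoters above each bar. The share is 8.91% in the lowest step and 92.7% in the highest.

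The motif shares went with this composition. The GC box was held by 67.0% of promoters with a region, by 20.6% without and by 46.2% of all promoters. The cAMP response element was held by 3.30%, 0.924% and 2.23%, and the E-box CACGTG by 10.4%, 4.74% and 7.84%. The TATA box went the other way, with 5.93% of promoters with a region, 20.8% without and 12.6% of all. The M-box core CATGTG, which all 3 enzyme promoters held, was found in 7.62% of promoters with a region, 16.4% without and 11.5% of all. The AP-1 site was held by 3.21%, 6.44% and 4.66%. The CCAAT box was held by 38.1% of promoters with a region, 38.3% without and 38.2% of all. Motifs rich in A and T or free of CpG can be rarer in CpG-rich promoters for their letters alone, and that part was not tested.

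Counted by gene, 64312 regions (87.9%) could be assigned to a protein-coding gene they overlapped or whose end was within 50 kb. At least 1 region fell to 16316 of 21883 genes (74.6%), with a median of 3 among these 16316 genes. Prkg1, the cGMP-dependent protein kinase gene, had the most, with 51 regions. All peaks assigned to it, with or without a partner in the other list, numbered 60 in replicate 1 and 62 in replicate 2. With a −log10 q of at least 5 Prkg1 had 28 regions, and without peaks below the median fold 20. It was followed by Nav2 with 50, the phosphodiesterase gene Pde4d with 47, Gse1 with 45, Snd1 with 44, and the cytolinker gene Dst, the RNA-binding Msi2 and Sox5 with 42 each. Exoc4 and the recombination gene Rad51b had 41, Macrod2 40, Nfia 39, Celf2 and Magi1 38 and Bcas3 37. These are long genes, from 353 kb for Gse1 to 1998 kb for Macrod2. Gene length and region count had a Spearman correlation of 0.593 over the 16316 genes with a region. Most of the regions lay inside the gene, 48 of 51 in Prkg1 and 45 of 47 in Pde4d. Pde4d had no region at its start. The longest covered length of the 15 was that of Gse1, with 62394 bp.

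Per 100 kb of gene, short genes with many flanking regions led, since regions up to 50 kb away are assigned to them. Among genes with at least 5 regions the first 10 were H2al2a, Sf3b5, Pcbp1, Ccdc182, Cebpb, Tex44, Ier3, Rplp1, Zcchc13 and Bloc1s4, all under 2 kb long. Pcbp1, an RNA-binding protein gene, had 11 regions, 10 of them between genes, and Cebpb, a leucine zipper factor, had 8. Among genes of at least 100 kb, a group chosen after the values were seen, Tacc1 had 18.7 regions per 100 kb, Septin9 18.4 and Nek6 18.3. Met, the hepatocyte growth factor receptor, had 18.1 and the chromatin factor gene Hmga2 17.4, each with 20 regions. The most densely covered stretch of 100 kb held Sfi1 (chromosome 11), with 18 regions over 33.6 kb, and the next held 15 histone genes of chromosome 13, with 14 regions over 30.02 kb.

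Chromosomes differed in how many regions they held. Chromosome 11 had the most per Mb, 43.7, and the highest share of open genes, 69.8%. The X chromosome had 7.70 per Mb with 40.3% of genes open. Chromosome Y had the fewest, 8 regions or 0.0881 per Mb, with 0.391% of its 256 genes open. Peak lists alone do not tell closed chromatin from DNA that is absent or cannot be mapped. Which of these holds on any chromosome was not tested. Per gene, chromosome 12 had 5.16 regions and chromosome 6 had 4.78, whereas chromosome 7 had 2.01, the lowest of the autosomes. The longest runs of neighbouring genes without a peak of either library were 255 genes of chromosome Y and 4 runs of sensory receptor genes. On chromosome 2, 119 genes from Olfr1131 to Olfr1274 were all olfactory receptors, and of 107 genes from Aplnr to Olfr1129, 102 were. On chromosome 7, 84 of 102 genes from Nlrp9b to Vmn1r180 were vomeronasal receptors. Of 90 genes from Olfr557 to Olfr649 there, 79 were olfactory receptors and 5 were beta-globin genes, which serve red blood cells.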

How the data were processed

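Open chromatin was measured by Omni-ATAC in B16F10 cells, per the labels' protocols, and the sample titles gave the groups and replicate numbers. In the sgScramble files the peaks themselves are named sgNT, which does not alter the group. The authors called broad peaks separately in each library. As deposited, a peak carries a score, a −log10 p-value, a −log10 q-value and the authors' fold, which is a ratio to background. The lowest −log10 q was 1.01 in replicate 1 and 1.00 in replicate 2. The submitters' processing notes list the builds GRCm38 and mm10 and the tools STAR 2.5.3a and HOMER, with no role for any. Which peak caller was used, and whether reads were shifted for Tn5, is not given in the sources used here.

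Peaks overlapping by at least 1 bp were merged, and percentiles of the fold were taken within each list, taking the highest where 1 list had several peaks there. Genes and promoters came from RefSeq tables of GRCm38.p6: 17491 genes had a start there, and for 4392 either end was used, within 1 kb. Of 390 listed symbols 387 matched, some through synonyms. A region was assigned to the gene it overlapped or to the nearest gene end within 50 kb. With 2 libraries of 1 group there was no comparison of groups and no test.

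The named genes were the 15 widest and 15 highest regions, the 15 genes with most regions, the 10 densest, up to 3 longest covered and 3 closed genes per list, 14 fixed symbols, the 5 longest runs without peaks and the lowest and highest chromosomes. Other genes were named after their values were seen. Some genes that the rule names are not reported here. The members, lists and this rule were chosen with earlier results of these data known. The steps were tested on simulated data. Python 3.11.15, numpy 2.4.6, pandas 2.3.3 and matplotlib 3.10.9 were used. The alternatives tried are given in the closing section.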

Additional observations from a re-analysis of the deposited data

How the results depend on the processing

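Depth and read counts are unknown, so no value here has a counting interval, and 2 libraries limit the error to their difference. No paired analysis was possible because only the 2 libraries of 1 group were used. Requiring a −log10 q of at least 5 gave 47721 regions, a median width of 1056 bp, 23.9% at starts, 55.3% of genes and 21.2% of other cell types' markers open, 91.1% of peaks shared and 28 regions for Prkg1. Keeping the upper 50% by fold gave 36540 regions, 1030 bp, 24.3%, 44.0%, 15.3% and 20, with a widest region of 3889 bp. Peaks of at least 500 bp gave 1130 bp, 22.9%, 57.1% and 25.9%. A 50% overlap of both peaks without merging kept the replicate 1 peaks and gave 836 bp, 18.3%, 57.6% and 24.7%, with a widest region of 5678 bp. There 80.2% of replicate 1 peaks were shared, against 89.1% of them in the main setting. Lists of equal length gave 58.5% of genes and 27.6% of markers open and a widest region of 5509 bp. A window of 2.5 kb gave 19.96% of regions at starts, 63.9% of genes and 42.9% of markers. Chosen after seeing the data, either end of every gene gave 60.4% of genes, and genes with a tabled start alone 59.1%. Without replicate 1 or replicate 2 the ranges were 743 to 754 bp, 14.96% to 15.5% at starts, 59.8% to 60.04% of genes, 30% to 30.6% of markers and 5748 to 6411 bp for the widest region. Merging within 1 kb moved none of these by more than the spread between the libraries. The setting with all sequences was the same run as the main one, so its values were equal in advance. Of 220 values for the open shares of single gene lists and the shares of regions inside and between genes, 133 stayed within that spread. The other 87 moved beyond it. The 1.5 times allowed for counts applied to none of these. The 133 include the setting with all sequences, whose values could not move. Most gene lists had equal numbers of open genes in both libraries. Their spread can thus be very small, and a change of 1 gene can count as moved. The causes were not tested.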

Other observations

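The longest runs of neighbouring regions with a low fold were looked at after the values were seen, and the genes at them are named as values only. A mean fold percentile under 5 was found in 2443 regions of both lists (3.34%). Of the runs they formed among neighbouring regions, 1912 were single regions, 157 were of 2 and 61 were of 3 or more, and 6 had 5 or more. The longest run held 9 regions over 79.3 kb at Pax3, with folds of 1.78 to 2.66 in replicate 1 and 1.77 to 2.33 in replicate 2. The next held 8 regions over 55.0 kb at Dct, with folds of 1.54 to 2.08 in replicate 1 and 1.497 to 2.03 in replicate 2. Gpnmb followed with 7 regions over 29.7 kb. The other 3 runs of at least 5 regions lay at Ppara (6 regions), at Frmd8 and the neighbouring Neat1 (6 regions) and at Gpr137b (5 regions). Median widths of the regions were 1083 bp at Pax3, 1905 bp at Dct and 1138 bp at Gpnmb. By −log10 q they spread widely, at Dct over percentiles of 7.33 to 72.2 in replicate 1 and 5.05 to 70.7 in replicate 2. DNA copy number and the background used for the fold were not tested.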
